A study of Rattus norvegicus with 8 samples.

Results

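RT1 is the major histocompatibility complex (MHC) of the rat, and its genes were measured here together with the genes that load peptides onto its products. The set held every row of the deposited gene table whose symbol begins with RT1-, plus B2m, Tap1, Tap2, Cd74, Ciita, Psmb8, Psmb9 and Psmb10, with the row of highest mean taken for each symbol. It came to 34 genes (26 RT1 symbols and 8 others) of 19485 symbols in the table. Tapbp had no row under that symbol and was not analysed here. Thoracic aorta came from male Sprague Dawley rats of wild type, labelled as 12 weeks old and 180 to 200 g. One group of 4 libraries received glyceryl trinitrate (nitroglycerin, a vasodilator) under the skin at 100 mg/kg, 3 times a day for 3 days. The other group of 4 received ethanol, the vehicle, on that schedule. The RNA was total RNA depleted of ribosomal RNA, and the extraction text of the labels speaks of an adipose type while the tissue label is aorta. The labels do not say that each library is a separate rat, so p-values measure the spread between these libraries, which may be technical.

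Class I molecules present peptides of the cell's own proteins to T cells and consist of a heavy chain, encoded by RT1-A and the non-classical RT1 loci, and the light chain B2m. The inducible proteasome subunits Psmb8, Psmb9 and Psmb10 cut the peptides, and Tap1 and Tap2 form the pump that carries them into the endoplasmic reticulum. Class II molecules, encoded by the RT1-B and RT1-D loci, present ingested proteins, need the chaperone Cd74 and the regulator Ciita, and are made mainly by dendritic cells, macrophages and B cells. Class I is made by most cell types, vessel wall cells among them. RT1 is among the most variable parts of the rat genome, Sprague Dawley is an outbred stock, and the RT1 type of these rats was not analysed here.

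Promoter sequences are shown for the peptide supply genes nearest to the test threshold (Tap2, Psmb9, Psmb10), for Tap1, which lies head to head with Psmb9, and for B2m. They are also shown for 2 class I and 2 class II genes whose libraries behaved differently. Each run is the 250 bases before the gene start in RefSeq (build GRCr8, which is not a build named for the deposited files), 5′ to 3′, and 27 of the 34 members had an entry. Capitals mark matches, on either strand, to 5 motifs: the interferon-stimulated response element (ISRE, searched as GAAA, 2 free bases and GAAA), the gamma-activated site (TTCNNNGAA), a kappaB site (GGGA, 4 free bases and CC), the X1 box core of class II genes (AACNGATG) and the CCAAT box (CCAAT). Overlapping matches run together in capitals, and a match is a description of letters only.
Tap2 (chr20:4652297-4652546, minus strand): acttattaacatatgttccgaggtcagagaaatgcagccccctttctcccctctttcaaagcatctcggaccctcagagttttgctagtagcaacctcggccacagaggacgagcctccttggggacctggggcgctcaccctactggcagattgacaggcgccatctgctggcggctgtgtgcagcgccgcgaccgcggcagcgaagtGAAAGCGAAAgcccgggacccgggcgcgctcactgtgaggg
Psmb10 (chr19:50743293-50743542, minus strand): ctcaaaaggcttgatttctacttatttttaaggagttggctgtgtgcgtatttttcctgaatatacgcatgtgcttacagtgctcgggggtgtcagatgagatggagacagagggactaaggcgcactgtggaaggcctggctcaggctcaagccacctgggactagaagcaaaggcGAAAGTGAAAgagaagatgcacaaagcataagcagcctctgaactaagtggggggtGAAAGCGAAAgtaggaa
Tap1 (chr20:4668544-4668793, minus strand): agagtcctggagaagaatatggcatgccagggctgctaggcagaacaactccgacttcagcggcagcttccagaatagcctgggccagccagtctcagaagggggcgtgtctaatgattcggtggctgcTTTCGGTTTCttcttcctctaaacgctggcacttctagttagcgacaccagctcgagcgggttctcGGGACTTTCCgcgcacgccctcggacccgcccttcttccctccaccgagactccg
Psmb9 (chr20:4668750-4668999, plus strand): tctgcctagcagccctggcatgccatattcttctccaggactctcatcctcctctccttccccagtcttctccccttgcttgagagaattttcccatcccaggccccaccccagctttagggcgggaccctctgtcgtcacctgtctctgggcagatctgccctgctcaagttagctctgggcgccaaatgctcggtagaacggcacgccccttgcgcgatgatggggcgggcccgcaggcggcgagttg
B2m (chr3:129549080-129549329, plus strand): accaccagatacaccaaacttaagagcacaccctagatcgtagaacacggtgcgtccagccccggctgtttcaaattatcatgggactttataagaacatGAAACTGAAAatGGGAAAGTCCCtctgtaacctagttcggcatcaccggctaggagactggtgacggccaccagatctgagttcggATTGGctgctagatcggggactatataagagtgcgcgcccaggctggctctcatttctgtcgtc
RT1-CE16 (chr20:3265444-3265693, minus strand): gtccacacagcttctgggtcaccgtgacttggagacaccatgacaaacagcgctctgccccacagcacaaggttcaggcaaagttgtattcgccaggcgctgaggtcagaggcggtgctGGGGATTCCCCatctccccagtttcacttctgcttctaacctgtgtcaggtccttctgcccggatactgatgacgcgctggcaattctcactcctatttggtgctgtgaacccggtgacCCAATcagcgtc
RT1-A1 (chr20:4906959-4907208, plus strand): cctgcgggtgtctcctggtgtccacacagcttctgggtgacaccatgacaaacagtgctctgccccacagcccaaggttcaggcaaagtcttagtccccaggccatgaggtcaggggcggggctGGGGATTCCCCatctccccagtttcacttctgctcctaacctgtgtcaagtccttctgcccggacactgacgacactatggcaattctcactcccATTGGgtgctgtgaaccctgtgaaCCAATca
RT1-Da (chr20:4515165-4515414, plus strand): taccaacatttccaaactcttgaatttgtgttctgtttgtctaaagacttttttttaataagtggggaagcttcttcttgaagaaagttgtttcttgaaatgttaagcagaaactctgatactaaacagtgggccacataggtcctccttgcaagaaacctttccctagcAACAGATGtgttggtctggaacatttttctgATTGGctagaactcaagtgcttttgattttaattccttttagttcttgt
RT1-Ba (chr20:4576807-4577056, plus strand): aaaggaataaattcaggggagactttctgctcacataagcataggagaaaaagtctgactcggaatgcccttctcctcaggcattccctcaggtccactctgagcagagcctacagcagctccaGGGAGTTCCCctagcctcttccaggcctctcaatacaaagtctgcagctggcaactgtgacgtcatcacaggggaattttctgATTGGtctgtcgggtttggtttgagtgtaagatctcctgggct

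The ISRE was matched in 7 of 27 member promoters (25.9%), against 3.41% of all 33469 promoters of that length. The 7 were B2m, Tap1, Tap2, Psmb10, RT1-S3, RT1-N3 and RT1-S2, and Psmb10 held 2 matches. A CCAAT box was matched in 20 of 27 (74.1%, against 34.0% of all promoters), and all 8 class II promoters were among them. The X1 core, searched as AACNGATG alone, was matched only at RT1-Da, RT1-Db1 and RT1-DOb among the 27 (11.1%, against 2.17%). Other forms of the X1 box were not searched. KappaB matches stood in 10 of 27 (37.0%, against 16.4%), RT1-CE16 and RT1-A1 among them. Gamma-activated sites stood in 2 of 27 (7.41%, against 7.67%). Tap1 and Psmb9 start 456 bases apart on opposite strands, and their windows share 44 bases. The ISRE and kappaB matches lie in the Tap1 window, and the Psmb9 window holds none of the 5 motifs.

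Values are FPKM (fragments per kilobase of transcript, scaled to the mapped fragments of the library), which allow levels of different genes to be compared per length. Depth was 7.48 to 8.86 aligned Gb in controls, and with nitroglycerin it was 6.77 to 8.39 Gb. Smooth muscle markers summed to 2024 to 2698 FPKM in controls and 1254 to 2639 with nitroglycerin, over 6 genes. Most of that sum was Acta2, with means of 2075 and 1602 FPKM. Means of Acta2, Myh11, Cnn1 and Des were lower with nitroglycerin, and those of Smtn and Myocd were higher. None of the 6 passed the test given below. The test took the 12977 rows that reached 1 FPKM in 4 or more libraries, and 19 of the 34 members passed this filter. Of the 19 rows, 3 hold no annotated transcript of the gene they are named after. The RT1-CE7 row is MSTRG.11994.1 (chromosome 20, 4881555 to 4883211, plus strand) and the RT1-T24-1 row is MSTRG.11900.1 (chromosome 20, 3233550 to 3262894, minus strand), in the coordinates of the deposited lncRNA table, which marks both as antisense to that gene. Below, antisense means that mark only, as strandedness is not given in the sources used here, and MSTRG.11994.1 has 1 exon. The RT1-CE10 row is the assembled locus MSTRG.11848. Reads of a gene and its antisense partner, and of near-identical RT1 copies, may have been shared between rows by the authors' assembly.

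Control library 1 and nitroglycerin library 3 stood apart at several RT1 rows. RT1-CE16, a class I heavy chain gene, read 0.0385 FPKM in control library 1 and 0.0174 in nitroglycerin library 3. The other controls read 14.3, 6.10 and 11.5 FPKM, and the other nitroglycerin libraries 6.09, 6.53 and 6.92. The lowest of those 6 was 158 times the higher of the low pair, so this row read near 0 in 1 library of each group. The cause was not tested.

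RT1-Ba, the alpha chain of a class II molecule, followed the same layout. Its controls read 0.154, 7.67, 2.74 and 6.03 FPKM, and its nitroglycerin libraries 5.81, 2.97, 0.110 and 1.53. RT1-Db1, a class II beta chain, read 0.151, 3.25, 1.3 and 2.68 FPKM in controls and 3.13, 1.34, 0.417 and 1.64 with nitroglycerin. The antisense row at RT1-CE7 read 0.0640, 2.17, 2.36 and 2.97 FPKM, and 2.64, 1.32, 0.404 and 4.82. In these 4 rows, of the 19 tested, the other 6 libraries were each at least 3 times the low pair. The same held for 0.57% of all 12977 tested rows. This layout was picked after the values were seen and was not tested.

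RT1-Bb, the beta chain that pairs with RT1-Ba, was under the filter and was also lowest in those libraries, at 0.627 and 0.00 FPKM against 0.775 to 1.96 in the others. The annotated RT1-CE10 row (MSTRG.11847), not the row chosen by highest mean, read 0.142 and 0.314 FPKM there and 1.04 to 2.79 elsewhere. Neither library was low in depth or at every member. They held 8.20 and 8.39 Gb of aligned sequence, and their Cd74 values, 18.5 and 16.5 FPKM, were the highest of their groups. RT1-Da, the alpha chain that pairs with RT1-Db1, read 4.30 and 6.87 FPKM in them, and RT1-S3 6.09 and 7.91. Control library 1 was, however, the lowest of all 8 at Tap1, Tap2, Psmb8, Psmb10, RT1-T24-1 and RT1-N3, and its median-of-ratios factor (0.742) was the lowest too. Low values at some RT1 rows thus stood beside full values at others in the same libraries.

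**Figure D1:**
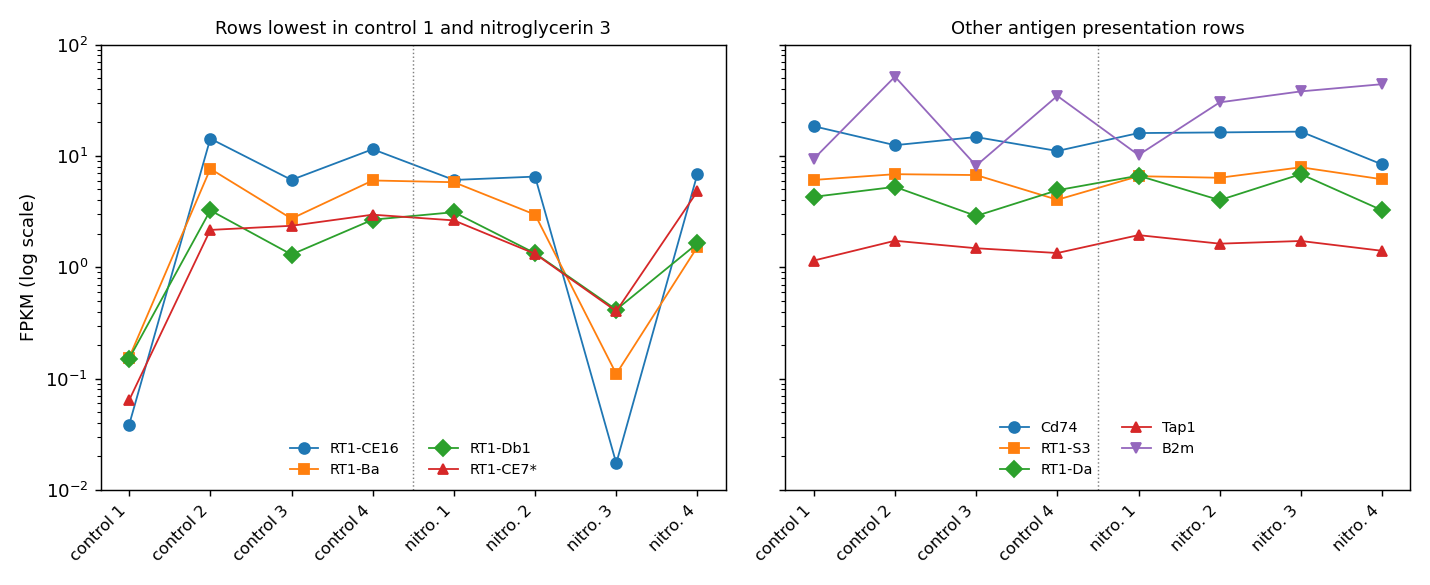
FPKM on a log axis for each of the 4 control and 4 nitroglycerin libraries (nitro.), with 1 line per row; the asterisk marks the antisense row at RT1-CE7. The 4 rows on the left fall to between 0.0174 and 0.417 FPKM in control 1 and nitroglycerin 3, while Cd74, RT1-S3, RT1-Da and Tap1 on the right do not, and B2m is low in control 1, control 3 and nitroglycerin 1.

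No antigen presentation gene passed the test of nitroglycerin against control over all genes. By limma on log2(FPKM + 1) with Benjamini-Hochberg adjustment at 0.05, 0 of the 19 were called, against 1.35% of all tested rows (175 of 12977). The lowest adjusted p by limma was 0.0581, for Psmb9. An unadjusted limma p under 0.05 was reached by 5 of 19, against 35.2% of all rows. All 5 were higher and 0 lower, against 34.1% and 1.02% of all rows. In 4 of 19 the nitroglycerin values all exceeded the controls (Tap2, Psmb9, Psmb10 and RT1-M3-1), against 24.2% of all rows. In 0 of 19 they all lay below, against 0.478%. The 19 had a median log2 difference of 0.26, beside 0.30 for all tested rows, and 15 of them were above 0, against 86.6% of all rows. These shares are near or under the background.

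Because most rows were higher with nitroglycerin, each library was also divided by its median-of-ratios factor, which brought the median of all rows to 0.01. After this rescaling limma again called 0 of 19 members, against 0.131% of all rows (0.0308% higher and 0.1% lower), and the members' median was 0.06. An unadjusted limma p under 0.05 then remained for 3 of 19 (Tap2, Psmb9 and Psmb10), against 11.9% of all rows. The 3 were higher and 0 were lower, against 5.5% and 6.44%. Differences above 0 were found for 11 of 19, against 52.4% of all rows. Without control library 1 and nitroglycerin library 3, limma called 0 of 19, against 0.1% of all rows (13 of 12977). An unadjusted limma p under 0.05 was then found for 5 of 19, against 19.4% of all rows (2524).

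**Figure D2:**
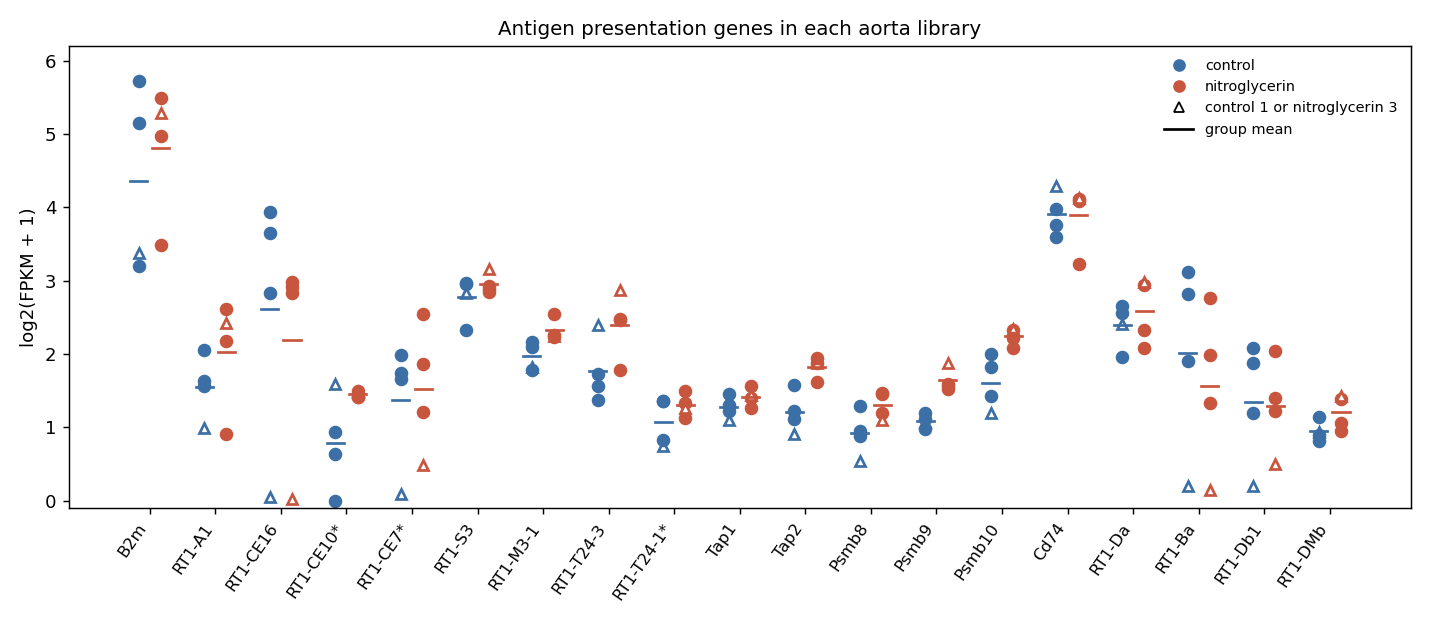
log2(FPKM + 1) of the 19 tested members in each library, with controls in blue, nitroglycerin in red, group means as bars and triangles for control 1 and nitroglycerin 3; asterisks mark rows without an annotated transcript. The triangles lie near 0 for RT1-CE16, RT1-Ba, RT1-Db1 and RT1-CE7, and all red points lie above all blue points for Tap2, Psmb9, Psmb10 and RT1-M3-1.

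B2m, the light chain of all class I molecules, was the most abundant member. Controls read 9.42, 51.5, 8.19 and 34.6 FPKM, and nitroglycerin libraries 10.2, 30.3, 38.0 and 44.1. Its values fell into a low range in control libraries 1 and 3 and nitroglycerin library 1 and a higher range in the other 5, with both ranges in both groups. The log2 difference was 0.45 (SE 0.64, limma adjusted p = 0.621), and 0.08 after rescaling. As deposited it was -0.04 without control library 1 and nitroglycerin library 3. Leaving out 1 library took it from 0.058 (control 3) to 0.90 (control 2). The summed FPKM of the 13 class I rows with an annotated transcript ran from 14.9 to 31.5 in controls and from 21.7 to 29.3 with nitroglycerin. After subtracting group means, the tested genes whose values were most like B2m over the 8 libraries included Son, Ehd4, Npc1 and Cep295nl. Their own ranges were narrower, such as 14.7 to 25.3 FPKM for Son. They were picked by the highest correlations of all tested symbols, so a close likeness was built in by that choice.

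RT1-A1, the classical class I heavy chain gene, read 0.983, 3.14, 2.10 and 1.95 FPKM in controls and 5.15, 3.51, 4.34 and 0.883 with nitroglycerin. Every nitroglycerin library but 1 exceeded all controls, and nitroglycerin library 4 lay below every control. Its log2 difference was 0.47 (SE 0.37, limma adjusted p = 0.361), and 0.22 after rescaling. As deposited it was 0.85 without nitroglycerin library 4 and 0.28 without nitroglycerin library 1 or control library 1. With the rows of the symbol summed it was 0.23. For RT1-CE16 the log2 difference was -0.43 (SE 0.94, limma adjusted p = 0.749), and it was -0.56 (SE 0.28, limma adjusted p = 0.299) without the 2 libraries that read near 0. In the remaining libraries it stood at 10.6 ± 4.18 FPKM in controls and 6.51 ± 0.414 with nitroglycerin (mean ± SD, n = 3 per group). Left out alone, nitroglycerin library 3 turned that difference to 0.29, and control library 1 took it to -1.28, and without control library 2 it was 0.012.

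Among the non-classical class I genes, RT1-S3 had the highest control values after RT1-CE16. It read 6.09, 6.86, 6.74 and 4.04 FPKM in controls and 6.58, 6.37, 7.91 and 6.18 with nitroglycerin. The groups overlapped, with a log2 difference of 0.18 (limma adjusted p = 0.426) that became -0.16 after rescaling. Without control library 4 it was 0.033, and without nitroglycerin library 3 it was 0.11. RT1-M3-1, the counterpart of the mouse molecule that presents formylated bacterial peptides, read 2.54, 3.49, 3.29 and 2.43 FPKM against 4.84, 3.70, 3.76 and 3.81. Its groups did not overlap, and its log2 difference of 0.36 (SE 0.13, limma adjusted p = 0.10) was 0.06 above the median row. After rescaling that difference was 0.06 (SE 0.11, limma adjusted p = 0.875).

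RT1-T24-3 read 4.26, 2.31, 1.97 and 1.59 FPKM in controls and 4.53, 4.60, 6.30 and 2.44 with nitroglycerin. Control library 1 lay above nitroglycerin library 4 and below the other 3, and the log2 difference was 0.63 (SE 0.27, limma adjusted p = 0.135). After rescaling that difference was 0.33 (SE 0.32, limma adjusted p = 0.726). The antisense row at RT1-T24-1 read 0.685 to 1.58 FPKM in controls and 1.19 to 1.82 with nitroglycerin. The assembled row at RT1-CE10 read 2.02, 0.00, 0.908 and 0.551 FPKM in controls and 1.66 to 1.83 with nitroglycerin. Its 4 nitroglycerin libraries were close together and its controls were not, and control library 1 was the highest of all 8. The log2 difference there was 0.66 (SE 0.30, limma adjusted p = 0.146). It was 0.40 without control library 2, 0.22 with the rows of the symbol summed and 1.59 with a pseudocount of 0.1. The annotated RT1-CE10 row (MSTRG.11847) went the other way, at -0.13 (SE 0.36, limma adjusted p = 0.798). After rescaling the assembled row stood at 0.43 and the annotated row at -0.28.

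Tap2 and Tap1 encode the partner chains of the peptide pump. Tap2 read 0.882, 1.97, 1.34 and 1.17 FPKM in controls and 2.66, 2.07, 2.66 and 2.87 with nitroglycerin. All 4 nitroglycerin libraries lay above the controls, though nitroglycerin library 2 cleared control library 2 by little. Its log2 difference was 0.62 (SE 0.16, limma adjusted p = 0.0615), 0.33 above the median row, and 0.38 (SE 0.12, limma adjusted p = 0.266) after rescaling. Tap1 read 1.15, 1.73, 1.48 and 1.34 FPKM in controls and 1.95, 1.63, 1.72 and 1.41 with nitroglycerin. These ranges overlapped, and the log2 difference of 0.14 (SE 0.13, limma adjusted p = 0.427) was 0.086 without control library 1 and turned to -0.09 after rescaling.

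Within each library, which removes the effect of scaling, the ratio of Tap2 to Tap1 was 0.767, 1.14, 0.902 and 0.872 in controls and 1.37, 1.27, 1.54 and 2.04 with nitroglycerin. The ratio of Psmb9 to Tap1, the head-to-head pair, was 0.956, 0.740, 0.780 and 0.726, and 1.01, 1.15, 1.56 and 1.44. In both ratios every nitroglycerin library lay above every control. Tap2 and Psmb9 also separated the groups alone, while Tap1 did not. In a further ratio, RT1-Da to Cd74, the groups overlapped. It was 0.232, 0.422, 0.196 and 0.444 in controls and 0.414, 0.246, 0.416 and 0.387 with nitroglycerin. These ratios were chosen after the values were seen and are given with no test. The share of other gene pairs that separate was not analysed here.

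Of the inducible proteasome subunits, Psmb9 and Psmb10 lay, with Tap2, nearest to the test threshold. Psmb9 read 1.10, 1.28, 1.16 and 0.975 FPKM in controls and 1.96, 1.87, 2.69 and 2.02 with nitroglycerin. The groups were well apart. They differed by 0.55 on the log2 scale (SE 0.13, limma adjusted p = 0.0581), and by 0.32 (SE 0.11, limma adjusted p = 0.311) after rescaling. Psmb10 read 1.29, 3.00, 2.52 and 1.70 FPKM in controls and 4.00, 3.25, 4.06 and 3.64 with nitroglycerin. Here too the ranges did not overlap. Their means lay 0.63 apart on the log2 scale (SE 0.18, limma adjusted p = 0.0677), and 0.35 (SE 0.14, limma adjusted p = 0.366) after rescaling. Psmb8 read 0.463, 1.45, 0.931 and 0.847 FPKM in controls and 1.75, 1.29, 1.15 and 1.78 with nitroglycerin. Control library 2 lay among the nitroglycerin libraries, and the log2 difference was 0.39 (SE 0.19, limma adjusted p = 0.173). Psmb9 and Tap2 passed when only the 10104 rows with an annotated transcript were tested (limma adjusted p = 0.0432 and 0.0475). That setting called 2 of 16 members, against 828 of all 10104 rows.

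**Figure D3:**
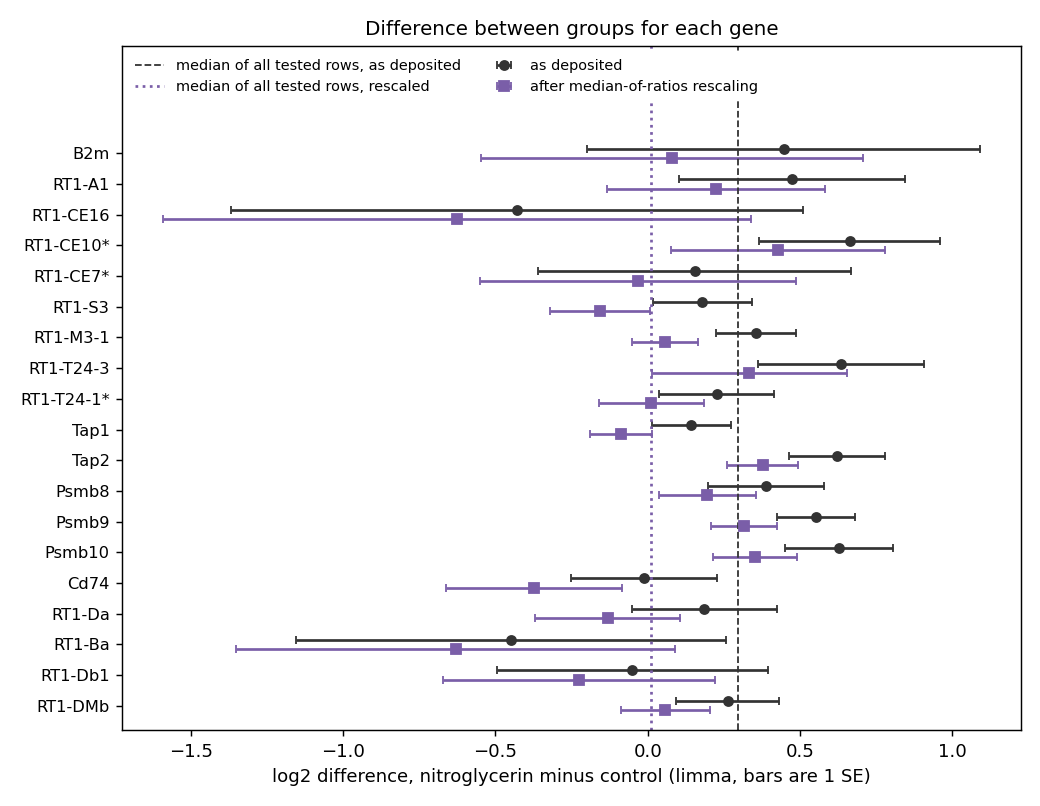
log2 difference of nitroglycerin minus control for the 19 tested members, with 1 SE from limma, as deposited (circles) and after rescaling (squares); asterisks mark rows without an annotated transcript. The dashed and dotted lines are the medians of all tested rows, 0.30 and 0.01, and Tap2, Psmb9 and Psmb10 lie to the right of both while RT1-CE16 and RT1-Ba carry the widest bars.

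Each inducible subunit takes the place of a constitutive one in the proteasome, Psmb8 that of Psmb5, Psmb9 that of Psmb6 and Psmb10 that of Psmb7. The ratio of Psmb9 to Psmb6 was 0.0746, 0.0696, 0.0665 and 0.0594 in controls and 0.0862, 0.0772, 0.10 and 0.101 with nitroglycerin, so the groups did not overlap. The mean difference was 0.43 on the log2 scale (exact permutation test, two-sided, p = 0.0286, which is the lowest possible with 4 libraries a group, and 0.0857 adjusted over 3 ratios). The ratio of Psmb10 to Psmb7 was 0.160, 0.250, 0.210 and 0.186, and 0.297, 0.272, 0.287 and 0.248. Nitroglycerin library 4 fell just inside the control range, and the log2 difference was 0.47 (exact permutation p = 0.0571, adjusted 0.0857). The ratio of Psmb8 to Psmb5 ran from 0.0412 to 0.112 in controls and from 0.0429 to 0.0805 with nitroglycerin, with a log2 difference of -0.18 (exact permutation p = 0.600, adjusted 0.600). None of the 3 passed after adjustment. Constitutive subunits stood about 3 or more times higher than inducible ones in every library.

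**Figure D4:**
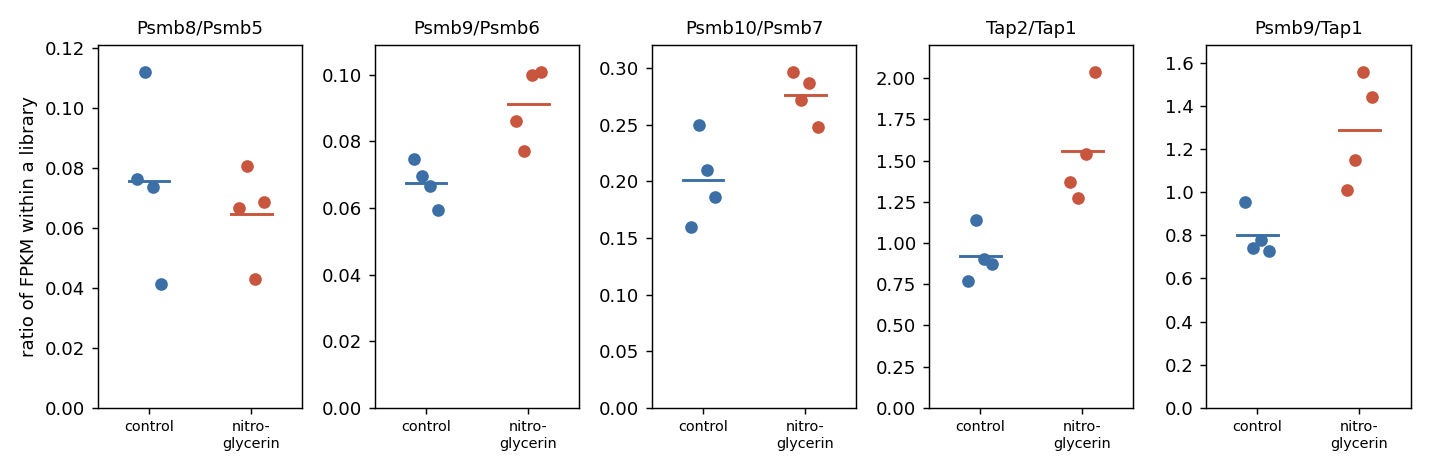
Ratio of FPKM within each library for 5 gene pairs, with 4 controls in blue, 4 nitroglycerin libraries in red, bars at the group means and axes from 0. The nitroglycerin libraries lie above all controls for Psmb9/Psmb6, Tap2/Tap1 and Psmb9/Tap1, and the groups overlap for Psmb8/Psmb5 and, by 1 library, for Psmb10/Psmb7.

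No class II gene passed the test, and the groups overlapped at each of the 4 tested and at Cd74. Cd74, the invariant chain that guides class II molecules to the compartment where they meet peptide, read 18.5, 12.5, 14.8 and 11.1 FPKM in controls and 16.1, 16.3, 16.5 and 8.40 with nitroglycerin. The nitroglycerin libraries were nearly equal but for library 4, the lowest of all 8. Its log2 difference was -0.01 (SE 0.24, limma adjusted p = 0.972), and 0.21 without nitroglycerin library 4. After rescaling it was -0.37 (SE 0.29, limma adjusted p = 0.649). After subtracting group means, the tested genes with values most like Cd74 over the 8 libraries were LOC100364435, Otud1, Lurap1, Mir3120 and Adgre4. They had the highest correlations of all tested symbols, so a close likeness was built in by that choice. Otud1, Mir3120 and Adgre4 were listed at 0.00 FPKM in control libraries 2 and 4 and nitroglycerin library 4. RT1-Da read 4.30, 5.28, 2.89 and 4.92 FPKM in controls and 6.66, 4.01, 6.87 and 3.25 with nitroglycerin. The difference was 0.19 on the log2 scale (SE 0.24, limma adjusted p = 0.574), and -0.13 after rescaling. Leaving out 1 library took it from 0.041 (control 3) to 0.35 (nitroglycerin 4). Its groups overlapped, and no library was near 0. For RT1-Ba the log2 difference was -0.45 (SE 0.71, limma adjusted p = 0.652), and for RT1-Db1 it was -0.05 (SE 0.45, limma adjusted p = 0.940). Without those libraries these were -0.58 (SE 0.44, limma adjusted p = 0.452) and -0.17 (SE 0.30, limma adjusted p = 0.755), and without nitroglycerin library 3 alone they were 0.023 and 0.21.

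RT1-DMb, a subunit of the catalyst that exchanges peptides on class II, read 0.921, 1.2, 0.753 and 0.863 FPKM in controls and 1.62, 0.931, 1.70 and 1.09 with nitroglycerin. Its log2 difference was 0.26 (SE 0.17, limma adjusted p = 0.275), and a further annotated row with this symbol lay at 0.600 to 1.23 FPKM, so reads may be split between copies. Its partner RT1-DMa, under the filter, read 0.681, 0.776, 0.725 and 0.472 FPKM, and 1.05, 0.766, 1.04 and 0.828. Ciita, the switch for class II transcription, was below 1 FPKM in every library, at 0.262 to 0.419 in controls and 0.240 to 0.521 with nitroglycerin. RT1-DOa and RT1-DOb, which restrain peptide exchange mainly in B cells, reached at most 0.151 and 0.112 FPKM.

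The remaining members under the filter were mostly near 0. RT1-N3 read 0.543 to 1.03 FPKM in controls and 0.657 to 1.11 with nitroglycerin. RT1-M6-2 reached 0.679 FPKM and RT1-N2 0.468. RT1-S2, RT1-M2, RT1-M4, RT1-Ha and the pseudogenes RT1-M10-2-ps and RT1-M10-4-ps did not exceed 0.174 FPKM. The RT1-CE6 row is MSTRG.11977.1 (chromosome 20, 4638482 to 4674651, plus strand), which the lncRNA table marks as antisense to that gene. It was listed at 0.00, 5.01, 2.06 and 4.71 FPKM in controls and at 0.00, 0.00, 0.123 and 0.00 with nitroglycerin. Only 3 controls were above 0.123 FPKM, and an exact 0 here can be a failed estimate.

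The members differed widely in their spread between libraries of a group. The within-group SD of log2(FPKM + 1) was 1.62 for RT1-CE16, 1.21 for RT1-Ba, 1.10 for B2m and 0.87 for RT1-CE7, all above the 95th percentile of tested rows. It was 0.13 for both Psmb9 and Tap1 (percentiles 8.76 and 9.43). The median over the 19 members was 0.38, beside 0.24 for all tested rows. With SEs of this size at the variable rows, differences of the size seen at RT1-CE16 or B2m were not detectable here.

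Other genes of antigen processing and of its control were taken from 6 lists with 57 entries, of which 45 were tested. By limma over all genes 2 rose, against 1.29% of all rows called higher, and 0 fell, against 0.0616% called lower. Over the 45, the median difference stood at 0.38 (log2) before and 0.07 after rescaling, beside 0.30 and 0.01 for all rows. As deposited, 26 of the 45 had an unadjusted limma p under 0.05, all higher, against 34.1% of all rows. In 16 the nitroglycerin values all exceeded the controls, against 24.2%. Both that rose encode subunits of NF-Y, the factor that binds CCAAT boxes. Nfyb, the other NF-Y subunit gene of the list, was not called (log2 difference 0.47, limma adjusted p = 0.0866). Its groups overlapped, at 1.27 to 2.52 FPKM in controls and 2.28 to 3.33 with nitroglycerin. Nfya read 1.38, 1.43, 2.09 and 1.99 FPKM in controls and 3.43, 3.40, 3.30 and 2.92 with nitroglycerin, and the groups were well apart. Its log2 difference was 0.66 (SE 0.12, limma adjusted p = 0.0492). Nfyc read 3.94, 4.28, 4.23 and 3.45 FPKM, and 5.96, 6.01, 6.47 and 5.97. Here the difference was 0.52 (SE 0.10, limma adjusted p = 0.0492). Neither passed after rescaling (limma adjusted p = 0.271 and 0.482), where limma gave 0 calls among the 45, with an unadjusted p under 0.05 for 8 against 11.9% of all rows, nor with the replicate number as a block (limma adjusted p = 0.123 for each).

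Of 9 tested genes of MHC transcription these were the only calls. Irf1, an interferon-induced activator of class I genes, read 2.88, 4.12, 3.75 and 4.2 FPKM in controls and 7.88, 8.46, 5.76 and 5.86 with nitroglycerin. Its groups did not overlap, and its log2 difference was 0.75 (SE 0.16, limma adjusted p = 0.0543). Rfx5, a subunit of the factor that binds the X box, stood at 3.35 ± 1.37 and 4.23 ± 0.337 FPKM (mean ± SD, n = 4 per group, limma adjusted p = 0.291). Nlrc5, the class I counterpart of Ciita, was listed at 0.00, 0.343, 0.00 and 0.00 FPKM in controls and at 0.519, 0.817, 0.00 and 1.68 with nitroglycerin, under the filter.

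No gene of the other 5 lists passed. Of 8 tested genes of interferon gamma signalling, Jak1, a receptor kinase, was the most abundant at 21.7 ± 3.92 and 29.6 ± 1.57 FPKM (limma adjusted p = 0.0844). Of 9 tested genes of peptide loading and trimming, the chaperone gene Calr was the most abundant, at 84.0 ± 9.26 and 92.6 ± 7.92 FPKM (limma adjusted p = 0.467). Of 8 tested genes of class II processing, Cst3, which encodes the cathepsin inhibitor cystatin C, was the most abundant at 221 ± 42.7 and 393 ± 30.0 FPKM (limma adjusted p = 0.0543).

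Of the 7 constitutive proteasome genes tested, Psmb4 was highest with 30.1 ± 5.24 and 43.4 ± 2.96 FPKM (limma adjusted p = 0.0706). Psmb5 stood at 13.1 ± 5.91 and 23.8 ± 5.18 FPKM (limma adjusted p = 0.0957), Psmb6 at 16.8 ± 1.58 and 23.4 ± 2.89 (adjusted p = 0.0706), and Psmb7 at 10.3 ± 2.00 and 13.6 ± 1.16 (limma adjusted p = 0.118). Their log2 differences of 0.90, 0.46 and 0.38, beside 0.30 for all rows, came to 0.53, 0.088 and 0.020 after rescaling, and none passed in either case. Of 4 tested MHC-like genes outside RT1, Fcgrt, the neonatal Fc receptor, was highest at 19.6 ± 2.94 and 24.1 ± 1.42 FPKM (limma adjusted p = 0.154).

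Markers of cells that present antigen were examined in the same libraries. Summed over 6 leukocyte markers, controls read 12.1 to 15.8 FPKM and nitroglycerin libraries 16.6 to 21.7, and none of the 6 passed by limma over all genes. After rescaling these sums overlapped, at 15.04 to 16.5 and 13.7 to 18.5, and the median log2 difference of the 6 went from 0.19, below the 0.30 of all rows, to -0.06. Ptprc, the pan-leukocyte CD45 gene, stood at 0.839 ± 0.194 and 1.01 ± 0.184 FPKM (mean ± SD, n = 4 per group, limma adjusted p = 0.573). Of 10 tested macrophage markers 1 rose, against 1.29% of all rows called higher. It was the scavenger receptor gene Cd163, from 1.91 ± 0.194 to 4.92 ± 1.48 FPKM (adjusted p by limma 0.0492, or 0.160 on rescaled values). Of the 10, 9 had differences above 0 as deposited, against 86.6% of all rows, and 7 after rescaling, against 52.4%. Lyz2, the most abundant, was the exception as deposited, at 52.0 ± 26.2 and 41.3 ± 19.8 FPKM. The macrophage sum, Lyz2 included, ran from 59.5 to 122 FPKM in controls and from 76.0 to 144 with nitroglycerin. Adgre1, the F4/80 gene, had means of 1.42 ± 0.301 and 2.87 ± 0.428 FPKM (adjusted p by limma 0.0503). Csf1r stood at 6.58 ± 0.776 and 8.44 ± 1.96 FPKM (limma adjusted p = 0.205). Dendritic cell markers summed to 9.74 to 14.7 and 13.5 to 19.2 FPKM over 9 genes, of which 4 were tested and none passed, and Flt3 was at most 0.236 FPKM.

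The defining T cell gene Cd3e was near 0, at most 0.0253 FPKM in any library. The B cell and the T and NK cell sums were 1.47 to 6.88 and 3.12 to 5.11 FPKM over 6 and 9 genes, and Blk and Cd4 were the only genes of these lists above the filter. The sum of 6 tested endothelial markers was 33.0 to 54.8 FPKM in controls and 57.8 to 66.6 with nitroglycerin. Of the 6, Eng and Esam rose (limma adjusted p = 0.0492 and 0.0414), against 1.29% of all rows called higher. Eng went from 11.1 ± 0.693 to 17.2 ± 1.37 FPKM and Esam from 3.90 ± 0.282 to 8.23 ± 1.51. Neither passed on rescaled values (limma adjusted p = 0.459 and 0.211). The endothelial sums overlapped after rescaling, at 36.5 to 65.7 and 54.2 to 55.6. Fibroblast markers summed to 1698 to 2468 and 1402 to 1526 FPKM over 5 genes, none of which passed. Most of that sum was Col1a1, at 1779 ± 302 and 1151 ± 33.5 FPKM. Lum, at 151 ± 81.8 and 127 ± 22.0 FPKM, also had a difference under 0 (log2 -0.14, limma adjusted p = 0.761). Dcn, Dpt and Pi16 had differences above 0, and the median of the 5 was 0.39. Lyz2, Adgre1, Col1a1, Lum, Dcn, Dpt, Pi16 and the smooth muscle genes were named after their values were seen. Adipocyte markers summed to 4.54 to 18.9 and 9.98 to 97.6 FPKM over 6, with nitroglycerin library 1 the highest. In whole aorta, fewer cells of a type and less RNA per cell cannot be told apart, and the part of these cell types in the values of the RT1 and peptide supply genes was not tested.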

How the data were processed

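The authors deposited FPKM per gene for 27742 rows, 19625 of them with an annotated transcript, and FPKM and coverage per base for assembled lncRNA transcripts with coding-potential scores, per the file headers. The deposited coverage divided by FPKM gave the aligned gigabases. The deposited scores were not used further. Per the submitters' processing notes, Bowtie 0.12.2, HISAT2 2.0 and StringTie 1.3.0 and the builds mm8 and Rnor_6.0 were used, with no roles given, and strandedness is not given in the sources used here. Counts were not analysed here, so no counting interval is given. An exact 0 can be a failed estimate.

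Groups were compared with limma 3.58.1 (R 4.3.3, mean-variance trend) on log2(FPKM + 1), a scale that understates changes of low genes, with Benjamini-Hochberg adjustment over all 12977 rows. Single ratios used exact permutation over 70 splits (scipy 1.17.1, Python 3.11.15). matplotlib 3.10.9 drew the plots. Every member above the filter is named. From the pathway lists, genes that passed, the most abundant of each and a few chosen genes are named, and some genes under this rule are not reported here. Steps were tested on simulated data. Members and lists were chosen with earlier results of these data known, and motifs and the paired left-out libraries after seeing the values. Alternatives covered the pseudocount, filters, scaling, robust eBayes, the replicate block, summed or annotated rows, and each library left out.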

Additional observations from a re-analysis of the deposited data

Results flagged for a closer look

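Groups of 4 values were examined for 26 rows or ratios in both treatments. In 5 of these 52 groups (9.62%) a single library lay far outside the rest. About 1 in 20 would do so by chance if values were normally distributed and untied, which was not checked. Explanations were not tested.

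RT1-CE16 read 0.0174 FPKM in nitroglycerin library 3 against 6.09 to 6.92 in the other nitroglycerin libraries. RT1-M3-1 read 4.84 FPKM in nitroglycerin library 1 against 3.70 to 3.81. Cd74 read 8.40 FPKM in nitroglycerin library 4 against 16.1 to 16.5. The antisense row at RT1-CE6 read 0.123 FPKM in nitroglycerin library 3 and was listed at 0.00 in the other 3, so any value above 0.00 would have been flagged. RT1-N3 read 0.543 FPKM in control library 1 against 0.953 to 1.03 in the other controls.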

How the results depend on the processing

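No member was called under the main test or under any alternative except the test of annotated rows. That test called 2 of 16 members (Psmb9 and Tap2), against 828 of all 10104 rows. At an unadjusted p under 0.05 limma gave 5 members in the main test. Of 343 member values under 19 alternatives, 316 kept their direction. After median-of-ratios rescaling, with or without the replicate block, the log2 differences turned to -0.16 for RT1-S3, -0.031 for RT1-CE7, -0.13 for RT1-Da and -0.088 for Tap1. With quantile normalization they were -0.12, -0.20, -0.12 and -0.12, and -0.039 for RT1-T24-1. With a pseudocount of 0.1 RT1-Db1 turned to 0.087. Without control library 1 and nitroglycerin library 3, a setting chosen after seeing the data, B2m turned to -0.040 and Cd74 to 0.035. Leaving out 1 library gave -1.28 to 0.29 for RT1-CE16, -0.27 to 0.50 for RT1-CE7, 0.058 to 0.90 for B2m, -1.05 to 0.023 for RT1-Ba, 0.28 to 0.85 for RT1-A1, 0.40 to 0.93 for RT1-CE10, 0.033 to 0.25 for RT1-S3, -0.43 to 0.21 for RT1-Db1 and -0.11 to 0.21 for Cd74. It gave -0.44 to 0.037 for the log2 ratio of Psmb8 to Psmb5. The cause was not tested.

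The main test called 175 genes in all. The count was 7 with a pseudocount of 0.1, 26 when unfiltered, 384 with at least 5 FPKM, 17 after rescaling, 15 after quantile normalization, 30 with rows of a symbol summed, 828 with annotated rows, 13 without the 2 libraries together and 5 to 284 without 1. Against 2 pathway genes, there were 5 with at least 5 FPKM and 7 with annotated rows. The count was 0 after rescaling, with a pseudocount of 0.1, no filter, quantile normalization, summed rows, the replicate block, rescaling with that block, or without the 2 libraries together (8 to 30 at an unadjusted limma p under 0.05), and 0 to 1 without 1 library. The replicate block called 0 genes in all (4037 at an unadjusted limma p), and 0 after rescaling with it (1611). Libraries of the same number correlated at -0.0117 to 0.133 in their deviations from group means, and 4 of 8 correlated best with their own number, so the numbers were not taken to pair them. With 4 pairs the exact test of the ratios cannot go below 0.125, and with 3 against 4 libraries not below 0.0571. Read depth per row was not analysed here, and low FPKM limits most RT1 rows.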

Other observations

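Several members had further rows under their symbol, which the highest mean left out. A second assembled transcript marked as antisense to RT1-CE7 was MSTRG.11993.1 (chromosome 20, 4879955 to 4881291, plus strand, 1 exon). It read 0.341, 2.16, 1.76 and 3.11 FPKM in controls and 2.94, 1.25, 0.00 and 4.33 with nitroglycerin. It was lowest in control library 1 and nitroglycerin library 3, like the row next to it. MSTRG.11979.1, an intronic transcript of 1 exon at RT1-CE6 (chromosome 20, 4755171 to 4755402), read 1.47, 1.29, 0.560 and 0.00 FPKM, and 2.35, 1.10, 3.08 and 0.00. It was listed at 0 in the fourth library of each group, while control library 1 and nitroglycerin library 3 were the highest of their groups. MSTRG.12024.1, which overlaps RT1-A1 (chromosome 20, 5378976 to 5419222), read 0.918, 1.05, 0.518 and 0.928 FPKM, and 1.71, 0.00, 0.592 and 0.0187. The annotated RT1-T24-1 row read 0.372 to 1.04 FPKM in controls and 0.447 to 0.843 with nitroglycerin. They are given as values.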
